A study of Mus musculus with 18 samples.

Results

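The 192 listed 5-methylcytosine (m5C) sites of the small RNA fraction of mouse testis were compared between adult wild-type (WT) mice and adult mice lacking Nsun7. All listed small RNA sites were taken, 192 of the 446 sites in the 3 RNA fractions of the series, and they lie in 128 named RNAs. Each genotype had 3 libraries of whole-testis small RNA, called replicates 1 to 3. RNA was converted by ultrafast bisulfite treatment, after which unmethylated cytosine is read as T and m5C as C. The level of a site is thus the percentage of its reads that still show C. Unmethylated cytosine that escaped conversion would also show C, which was not checked here. The question is whether m5C at any of these sites needs Nsun7, which the series title calls catalytically inactive on RNA. The sources used here do not give the rule for listing sites. A site without m5C in the knockout may thus not have been listed, which was not tested. The labels give no further allele, strain or treatment, do not say how the knockout was made, and do not state whether libraries of 1 genotype are from different animals. P-values therefore weigh differences only against the variation among these libraries, and that variation may be technical. The small RNA table holds no site in Nsun7 and no expression values, so neither the knockout nor the tissue could be checked from it.

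Much of the RNA m5C of mammals is set on tRNA. NSUN2 methylates the variable loop of many cytosolic tRNAs and the wobble base of a leucine tRNA, DNMT2 (TRDMT1) a base of the anticodon loop of aspartate, glycine and valine tRNAs, and NSUN6 the acceptor end of cysteine and threonine tRNAs. NSUN3 methylates the wobble base of mitochondrial tRNA-Met. NSUN7 belongs by sequence to the same NOL1/NOP2/Sun family as the NSUN enzymes and is known for its expression in the testis. A tRNA gene is written here as amino acid, anticodon, isodecoder number and copy number. By convention genes that share the isodecoder number have the same mature sequence, and an isoacceptor is the group of genes with 1 anticodon.

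Each library had 4674265 to 5096438 reads summed over the sites, and the median site had 134 to 183.5 reads. A read is counted at each listed site it covers, so a sum can be larger than the number of distinct reads. The depth was very uneven. Cytosolic tRNA sites held 96.8% of the summed coverage, mitochondrial tRNA sites 2.90%, other RNAs 0.286% and tRX genes, the tRNA-like genes without an assigned function, 0.00836%. The 2 sites of tRNA-Glu-TTC-1-1 alone held 39.8%, and the 4 Glu-TTC genes together 69.7%. Coverage of these 2 sites was almost the same in every library, at 961677 to 978773 and 965898 to 972377 reads. That is a coefficient of variation of 0.685% and 0.275%, where the 50 sites with at least 1000 reads in every library had a median of 12.7% and no other site of these was under 3.98%. The sources used here do not say whether reads per site were limited in the processing. If they were, these shares would be lower bounds and the coverage of this RNA could not be compared between libraries, which was not tested. WT replicate 1 stood apart from the other libraries. It had the highest or lowest level of the 6 libraries at 50 of the 100 sites with at least 100 reads, where the others were extreme at 25 to 34, and its mitochondrial share of the coverage was 3.82% against 2.39% to 3.33%.

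Levels were much alike in the 2 genotypes over the whole range from 5.96% to 100%. In WT 64 of the 192 sites stood at or above 90% and 14 stood under 20%. The quasi-binomial model, which tests C reads out of coverage and lets each site vary more between libraries than counting alone, tested 184 sites and called 0% of them after Benjamini-Hochberg adjustment, with a lowest adjusted p of 0.309. Without adjustment 7 sites, 3.8% of those tested, had p under 0.05. The model with dispersions moderated over sites and limma on the levels also called 0 sites, and in each 7 sites had p under 0.05 before adjustment. The 3 knockout libraries lay wholly above the 3 WT libraries at 11 sites (5.73%) and wholly below them at 11 (5.73%), together 11.5% of the sites. A p that misses the threshold does not show that 2 levels are the same, and the depth sets how large a difference each site could show.

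**Figure D1:**
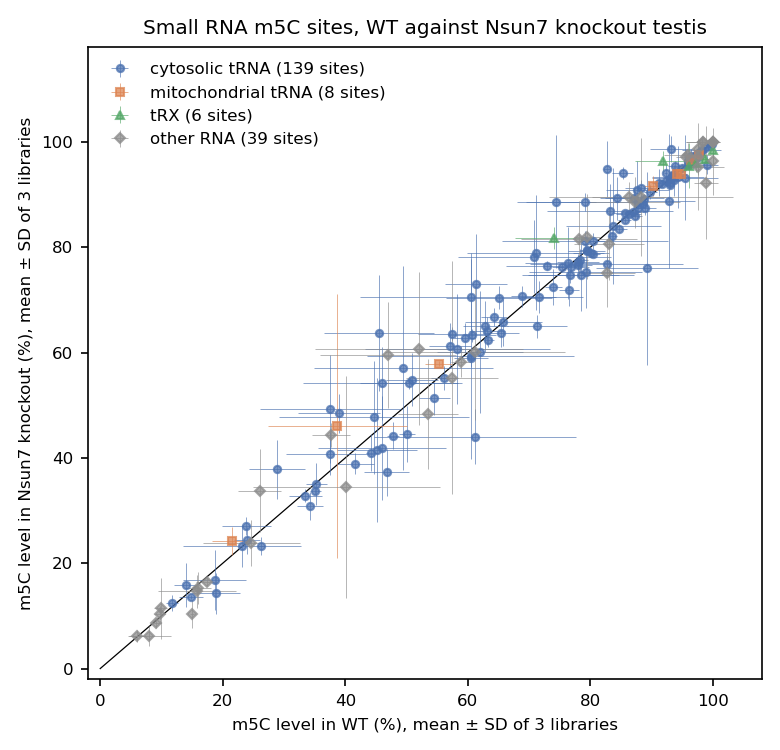
Each point is 1 of the 192 small RNA sites, with the mean m5C level (%) of the 3 WT libraries on the x axis and of the 3 Nsun7 knockout libraries on the y axis. Bars are the SD between libraries and the line marks equal levels; the points follow the line over the whole range, and the widest bars belong to shallow sites.

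The size of the difference between genotypes followed the depth. At the 63 sites with a library under 30 reads the SD between libraries had a median of 5.58 percentage points in WT against 6.42 in the knockout, and differences ran from -17.1 points, in tRNA-Gly-GCC-2-7, to 18.3 points, in tRNA-Val-AAC-2-1. At the 29 sites whose shallowest library had at least 30 but under 100 reads the median SD was 3.92 points in both genotypes. At the 50 sites with at least 100 but under 1000 reads it was 1.45 in WT against 1.69 in the knockout, and differences ran from -5.60 to 3.26 points. At the 50 sites with at least 1000 reads it was 0.642 and 0.432, the median difference in either direction was 0.337 points, and 48 of the 50 sites differed by less than 2 points.

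The 2 deep sites outside that limit were in tRNA-Gly-CCC-2-2 and tRNA-Tyr-GTA-2-1. The tRNA-Tyr-GTA-2-1 site (chromosome 5, position 31045490, 1384 to 2053 reads) stood at 65.3%, 77.5% and 75.8% in WT against 75.5%, 77.2% and 76.9% in the knockout. Only WT replicate 1 lay low there, and the genotypes overlapped. The first tRNA-Gly-CCC-2-2 site (chromosome 3, position 96290272, 7767 to 10405 reads) stood at 45.2%, 39.98% and 39.8% in WT against 38.5%, 41.1% and 37.1% in the knockout. WT replicate 1 was the highest there and the genotypes overlapped. The part of that library in these differences was not tested.

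Deep sites varied between libraries by more than counting error. The quasi-binomial dispersion, which is 1 where counting error alone acts, was above 1 at 44 of the 50 sites with at least 1000 reads, with a median of 5.35. Fisher's exact test on reads pooled over the libraries of a genotype, which takes no account of this spread, called 24 of 192 sites. Its lowest adjusted p was 3.09e-27, at the second site of tRNA-Leu-CAA-2-1 (chromosome 13, position 21384453, 81432 to 109121 reads). The WT libraries stood there at 93.4%, 93.4% and 92.3% and the knockout libraries at 92.7%, 91.5% and 92.5%. The genotypes overlapped, and the quasi-binomial model gave an adjusted p of 0.877 for a difference of -0.758 points.

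**Figure D2:**
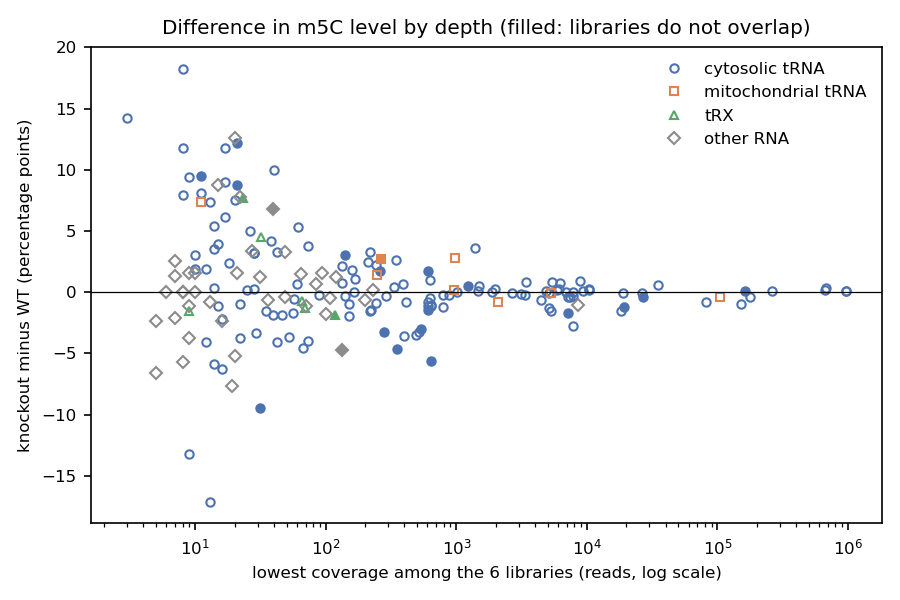
Difference in m5C level, knockout minus WT in percentage points, against the lowest coverage among the 6 libraries (reads, log axis), 1 point for each of the 192 sites by RNA kind. Filled symbols are the 22 sites whose 6 libraries did not overlap between genotypes; the spread narrows from -17.1 to 18.3 points under 30 reads to -2.76 to 3.63 points at 1000 reads or more.

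By kind of RNA, the cytosolic tRNAs held 139 sites in 83 genes. Their mean level was 71.9%, 73.2% and 72.8% in the WT libraries and 73.2%, 73.3% and 73.3% in the knockout libraries. That is 72.6% ± 0.688 in WT against 73.3% ± 0.0525 in the knockout (SD, n = 3). The difference of 0.655 points spanned -0.00852 to 1.44 over the 9 pairs of libraries, with p = 0.2 in the two-sided exact permutation test. The median over the sites turned the direction, to -0.369 points, and so did the 102 sites with at least 30 reads in every library, to -0.271 points. For 3 against 3 libraries the smallest p is 0.1. The range over the 9 pairs is an exact 90% interval if the genotypes differ by a shift alone, with equal spread. The SDs here were 0.688 and 0.0525, and equal spread was not tested.

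Mitochondrial tRNAs, listed under the mitochondrial genome, had 8 sites in 6 tRNAs, mostly deep. tRNA-Ser2 (position 11646, 103968 to 176895 reads) stood at 94.2% ± 0.848 in WT against 93.8% ± 0.303 in the knockout, tRNA-His (position 11588, 5292 to 8767 reads) at 97.6% ± 0.442 and 97.5% ± 0.462, and tRNA-Leu1 (position 2725, 2087 to 3333 reads) at 94.7% ± 1.01 and 93.9% ± 0.419 (SD, n = 3). tRNA-Leu2 carried 2 adjacent sites that were far apart in level. Its site at position 11716 had 18.4%, 21.2% and 24.8% in WT against 26.8%, 21.5% and 24.5% in the knockout, while that at 11717 had 96.0% to 96.6% in WT against 96.1% to 97.3% in the knockout. The site at 11716 overlapped between genotypes, at a difference of 2.82 points that limma bounded at -2.97 to 8.61 (95% interval). tRNA-Pro, the only one of these 6 tRNAs encoded on the opposite strand of the mitochondrial genome, had just 11 to 34 reads, and its libraries ran from 18.2% to 66.7%. All 192 sites carry a plus sign for strand, tRNA-Pro included, so the sign was not read as the strand of the gene.

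The mean over the 8 mitochondrial sites was 73.6% ± 1.30 in WT against 75.2% ± 2.64 in the knockout (SD, n = 3), p = 0.4 in the exact permutation test. The difference of 1.65 points turned to -0.263 when reads were pooled over the sites. Over the sites with at least 30 reads, which leaves out tRNA-Pro, it was 0.842 points, with every knockout library above every WT library (exact permutation p = 0.1). Both sites of tRNA-Met, the NSUN3 substrate, were measured at 248 to 384 reads. The one at 3875 stood at 57.3%, 55.5% and 52.8% in WT against 58.2%, 57.4% and 58.1% in the knockout, and the one at 3888 at 88.4%, 90.9% and 91.1% in WT against 93.4%, 89.7% and 91.7% in the knockout. The knockout libraries lay just above WT at the first of these and overlapped WT at the other. The gap between them was 35.0 ± 3.60 points in WT against 33.7 ± 1.43 in the knockout.

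The tRX genes had 6 sites in 5 genes, none with more than 198 reads, and 5 of the 6 sites were at or above 90% in WT. tRX-Lys-NNN-23-1 (chromosome 8, position 61231784, 117 to 198 reads) was the deepest, with 99.1%, 98.99% and 97.7% in WT against 95.9%, 97.6% and 96.9% in the knockout. Its knockout libraries lay just below WT (quasi-binomial model, adjusted p = 0.799). tRX-Lys-NNN-16-1, the lowest tRX site, lay above WT in the knockout, at 66.7%, 77.1% and 78.3% against 84.1%, 80.0% and 81.1% on 23 to 44 reads. The mean over the 6 sites was 93.0% ± 1.29 in WT against 94.1% ± 0.190 in the knockout (SD, n = 3; exact permutation p = 0.4), and the difference of 1.15 points turned to -0.391 for the median and -0.513 for pooled reads.

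The other 39 sites lay in 34 RNAs, most of them protein-coding or long non-coding genes with few reads. Their mean was 62.3% ± 1.4996 in WT against 62.5% ± 0.976 in the knockout (SD, n = 3; exact permutation p = 0.8). The difference of 0.232 points turned to -2.80 for the median, to -2.96 for pooled reads, to -0.428 without WT replicate 1 and to -0.262 without knockout replicate 1. Adjusted over the 4 kinds, the permutation p was 0.533 for cytosolic tRNA, mitochondrial tRNA and tRX and 0.8 for the other RNAs. Among these other sites the level was lower at deeper sites, with a Spearman correlation of -0.580 between the WT level and the coverage over 39 sites, while over the 139 cytosolic tRNA sites it was 0.394. Level and coverage of a point come from the same reads, and the correlations are given as a description.

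Of the 5 most covered of these other RNAs, Gm37350, Rprl2, Snord118 and Jak3 had low levels, while Nphp4, a gene for a ciliary protein, stood at 97.5% ± 0.257 in WT against 98.7% ± 1.26 in the knockout. Gm37350 (chromosome 3, position 5925769, 8530 to 13908 reads) stood at 15.5%, 17.9% and 18.8% in WT against 17.2%, 16.0% and 15.9% in the knockout, inside the spread of WT. A shallow second site of Gm37350 had 95.7% ± 1.66 and 97.2% ± 1.48 on 65 to 119 reads. Snord118, the U8 small nucleolar RNA of ribosome assembly, had 16.0% ± 1.96 and 15.4% ± 3.02 (SD, n = 3, 200 to 258 reads). Rprl2, a gene for an RNase P RNA-like transcript, carried 5 sites. Of these, 4 stood at 5.96% to 9.84% in WT against 6.17% to 11.4% in the knockout. The remaining one, at position 22305698 of chromosome 3, stood at 50.0%, 59.1% and 51.4% in WT against 36.5%, 56.6% and 51.7% in the knockout. Knockout replicate 1 was the low library there and the genotypes overlapped.

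One position was listed in 2 fractions. Position 72142024 of chromosome 8 was named Jak3, a tyrosine kinase gene, in the small RNA and Insl3, a Leydig cell hormone gene, in the mRNA. In the small RNA it had 15.3%, 14.7% and 15.0% in WT against 7.43%, 10.8% and 12.7% in the knockout, on 134 to 194 reads. The knockout libraries lay below WT there (quasi-binomial model, adjusted p = 0.799). In the mRNA libraries, which were prepared separately, the same position had 5.72%, 5.25% and 5.97% in WT against 5.76%, 6.00% and 4.77% in the knockout on 1122 to 2795 reads. There the genotypes overlapped, at a difference of -0.141 points spanning -1.21 to 0.742 over the pairs of libraries.

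The cytosolic tRNA sites fell in 34 isoacceptors. The most covered site of each spanned nearly the whole scale. At the top were tRNA-Lys-CTT-3-1 at 99.7% ± 0.385 in WT against 99.7% ± 0.106 in the knockout, tRNA-Glu-TTC-1-1 at 98.8% ± 0.0907 and 98.9% ± 0.0516, tRNA-Val-TAC-1-3 at 97.5% ± 0.466 and 97.1% ± 0.231, and tRNA-Leu-AAG-1-3 at 97.2% ± 0.0676 and 97.3% ± 0.0416 (SD, n = 3). At the bottom were tRNA-Leu-CAG-2-1 at 14.9% ± 1.94 and 13.6% ± 0.408 on 5124 to 7922 reads, tRNA-Lys-TTT-1-5 at 14.0% ± 1.91 and 15.9% ± 4.12 on 10 to 38 reads, and tRNA-Met-CAT-2-1 at 18.7% ± 5.14 and 16.8% ± 5.68 on 39 to 61 reads. The most covered Ile-AAT site, in tRNA-Ile-AAT-1-6, stood at 96.05%, 96.19% and 95.97% in WT against 96.53%, 96.68% and 96.52% in the knockout on 1237 to 1547 reads, so that its knockout libraries lay just above WT (quasi-binomial model, adjusted p = 0.316). The most covered sites of isoacceptors of 1 amino acid could thus lie far apart, though these sites were not matched by position in the tRNA. Among leucine tRNAs the most covered site stood at 97.2% for AAG, 93.1% for TAA, 93.0% for CAA and 85.7% for TAG in WT, but at 14.9% for CAG. Among lysine tRNAs it stood at 99.7% for CTT and 14.0% for TTT. The initiator tRNA iMet-CAT-1-4 stood at 92.4% ± 0.616 in WT against 92.5% ± 0.945 in the knockout, while the elongator tRNA-Met-CAT-2-1 stood at 18.7% in WT. Listed copies of 1 isodecoder could differ as widely, though by convention they share the mature sequence. How reads were assigned among them is not known. The copy iMet-CAT-1-2 stood at 60.6% in WT on 347 to 492 reads and iMet-CAT-1-5 at 18.9% on 67 to 97 reads. The copy tRNA-Leu-CAG-2-2 stood at 47.8% in WT on 396 to 633 reads.

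**Figure D3:**
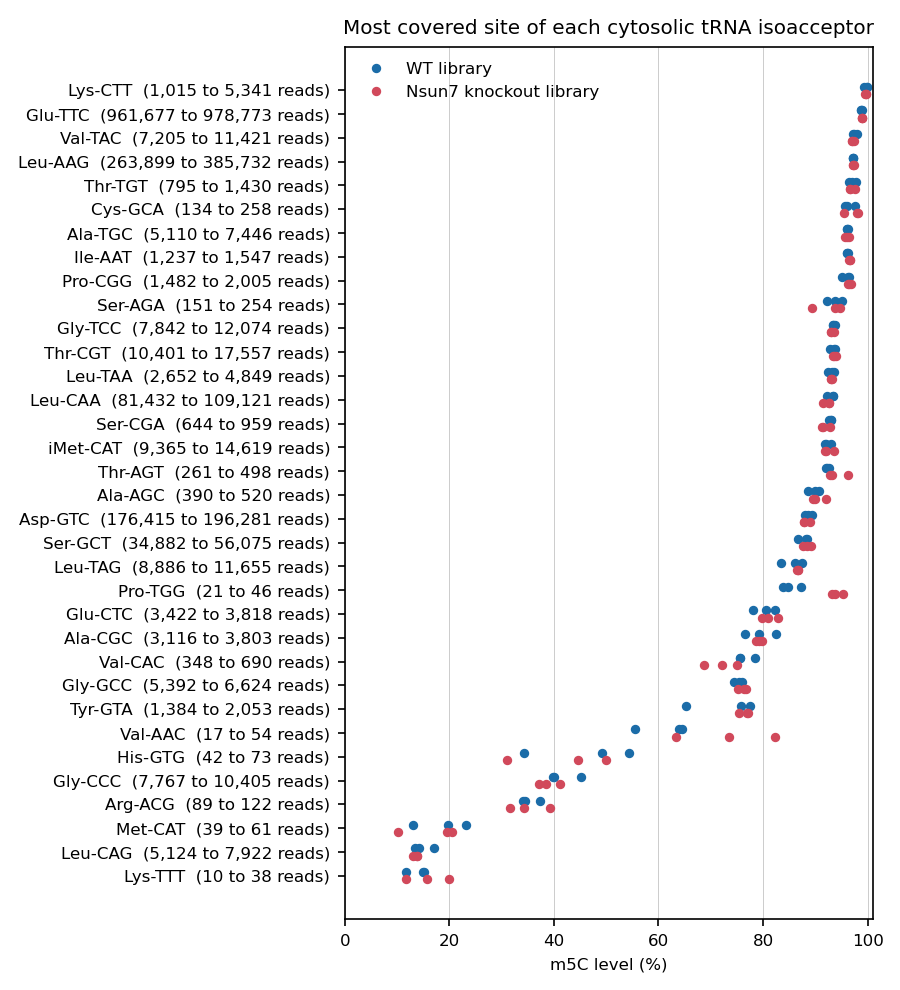
The m5C level (%) of the most covered site of each of the 34 cytosolic tRNA isoacceptors in each library, with the range of reads behind it. WT and knockout points overlap at most sites; Pro-TGG, at 21 to 46 reads, Ile-AAT and Thr-AGT have their knockout libraries above WT, and Val-CAC has them below WT.

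Averaged over the sites of an isoacceptor, the knockout minus WT difference ran from -2.42 points for Leu-CAG to 10.5 points for Pro-TGG, and it was under 2 points for 27 of the 34. It was above 0 for 22 and below 0 for 12. Libraries did not overlap for 4 isoacceptors, 11.8% of them, where the probability without an effect of genotype is 0.1 for each. Leu-CAG (2 sites) had 31.3% ± 1.07 in WT against 28.9% ± 1.31 in the knockout and Thr-TGT (2 sites) 90.9% ± 0.469 against 90.2% ± 0.388, while Val-CAC (4 sites) had 52.6% ± 1.80 and 55.8% ± 0.279 and Pro-TGG (2 sites) 84.0% ± 0.745 and 94.4% ± 2.92 (SD, n = 3). None passed the exact permutation test after adjustment, whose lowest adjusted p was 0.85. For Val-CAC the mean hid opposite values: tRNA-Val-CAC-2-1 at position 170939059 was lower in the knockout, at 75.7%, 75.6% and 78.4% against 75%, 68.7% and 72.1% on 348 to 690 reads, a difference of -4.61 points that was -3.00 without knockout replicate 2. The tRNA-Val-CAC-2-3 site at 48709417 was higher, at 42.9%, 31.2% and 42.9% against 52.6%, 47.4% and 45.5% on just 11 to 21 reads. With 1 library left out, isoacceptors without overlap numbered 6 to 9. Fewer libraries must then lie apart, so the probability without an effect of genotype is above 0.1 for each.

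Pro-TGG was represented by 1 shallow gene. The tRNA-Pro-TGG-1-1 site at position 98464670 of chromosome 7 stood at 84.8%, 87.2% and 83.9% in WT against 95.2%, 93.1% and 93.8% in the knockout on 21 to 46 reads. Its knockout libraries were all higher, by 8.75 points in the mean. The libraries of a genotype varied there by less than counting error at such depth, with a dispersion of 0.0674. The adjusted p was 0.309 in the quasi-binomial model, 0.848 with moderated dispersions and 0.124 in limma. The other proline isoacceptor, Pro-CGG, had 97.0% ± 0.371 in WT against 97.3% ± 0.401 in the knockout at 1457 reads or more.

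Of the 83 cytosolic tRNA genes, 44 had 1 listed site, 25 had 2, 11 had 3 and 3 had 4. Sites are taken here in the order of their coordinates, which is not known to be the order from 5′ to 3′ end in each gene. Spacings were restricted. Neighbouring sites were 1 nucleotide apart, 9 or 10 apart, 23 or 24 apart, or 41 to 46 apart. The commonest pattern was 2 adjacent sites, in 16 genes. An isolated site followed 9 nucleotides later by 2 adjacent sites was found in 5 genes, 4 of Asp-GTC and tRNA-Gly-GCC-2-7. The same with 3 adjacent sites was found in 3 genes, all Gly-GCC. Spacings of 23 or 24 nucleotides were seen in Thr, Cys and His genes, and those of 45 and 46 in the 2 Leu-CAA genes. No gene showed the mirror image of any of these mixed patterns.

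Adjacent sites of 1 tRNA often had very different levels. Over the 36 adjacent pairs of cytosolic tRNA genes the gap had the same sign in all 6 libraries for 27. tRNA-Gly-CCC-2-2 carried 3 adjacent sites at 41.7% ± 3.06, 85.6% ± 1.11 and 11.7% ± 1.00 in WT against 38.9% ± 2.04, 85.2% ± 0.643 and 12.4% ± 1.498 in the knockout (SD, n = 3, 6218 to 10405 reads). tRNA-Gly-TCC-1-5 also had its highest level at the middle site, with 80.5% ± 1.02, 93.5% ± 0.293 and 79.5% ± 1.17 in WT against 78.8% ± 0.526, 93.2% ± 0.308 and 79.5% ± 0.446 in the knockout (7129 to 12074 reads). Its first site had all 3 knockout libraries below WT. In all 7 Glu genes the second of the adjacent sites was the lower in 6 of 6 libraries. The gap there ran from -0.467 ± 0.494 points in tRNA-Glu-TTC-1-3 to -6.57 ± 1.80 in tRNA-Glu-CTC-1-4 in WT against -0.362 ± 0.0928 to -5.48 ± 1.13 in the knockout.

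In the Asp-GTC and Gly-GCC genes, where DNMT2 is known to act in the anticodon loop, the isolated site was set against the adjacent sites after it. tRNA-Asp-GTC-1-11 (chromosome 13, positions 22095520, 22095529 and 22095530) was measured on 150628 to 196281 reads. Its isolated site stood at 97.39%, 97.46% and 97.38% in WT against 97.51%, 97.51% and 97.53% in the knockout. The site after it stood at 55.5%, 58.6% and 54.3% in WT against 54.4%, 57.8% and 53.5% in the knockout, and the last at 88.0%, 89.3% and 88.6% in WT against 87.9%, 89.0% and 87.9% in the knockout. The isolated site thus lay apart between genotypes by 0.105 points in the mean, for which the quasi-binomial model gave an adjusted p of 0.799, while the others overlapped. tRNA-Asp-GTC-1-5 on chromosome 1 had the same order, 97.8% ± 0.0511, 60.6% ± 2.78 and 87.2% ± 1.11 in WT against 97.8% ± 0.108, 59.0% ± 1.71 and 86.0% ± 0.205 in the knockout (SD, n = 3, 18241 to 61510 reads). All 3 knockout libraries lay below WT at its last site. Shallow copies did not keep this order. In tRNA-Asp-GTC-1-10, where 2 adjacent sites are listed on 35 to 64 reads, the first was the higher. It stood at 74.0% ± 1.45 in WT against 57.1% ± 3.37 for the second. These copies share 1 isodecoder number, and the sources used here do not give how reads were assigned among them.

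The 3 Gly-GCC genes with 4 sites shared a low second site and a fall from the third site to the fourth. The highest mean was at the first site in tRNA-Gly-GCC-2-8, and at the third in tRNA-Gly-GCC-2-1 and tRNA-Gly-GCC-4-1. tRNA-Gly-GCC-2-8 stood at 86.2% ± 2.05, 33.5% ± 2.62, 83.6% ± 0.766 and 75.3% ± 0.740 in WT against 86.3% ± 0.374, 32.8% ± 1.21, 82.1% ± 1.09 and 76.1% ± 0.780 in the knockout (SD, n = 3, 4445 to 6624 reads). tRNA-Gly-GCC-2-1 had 63.1% ± 2.91, 35.1% ± 0.835, 71.6% ± 2.84 and 63.3% ± 0.904 in WT against 64.1% ± 2.65, 33.7% ± 0.508, 70.5% ± 3.06 and 62.5% ± 1.47 in the knockout (601 to 935 reads). At the second site of tRNA-Gly-GCC-2-1 all 3 knockout libraries lay below WT. tRNA-Gly-GCC-4-1 was lowest, at 50.1% ± 1.30, 26.2% ± 0.658, 54.5% ± 2.50 and 34.3% ± 2.11 in WT against 44.5% ± 5.34, 23.2% ± 1.65, 51.3% ± 3.21 and 30.8% ± 2.67 in the knockout (494 to 808 reads). At each site but the second the 3 genes did not overlap in any library. Of these, tRNA-Gly-GCC-2-8 and tRNA-Gly-GCC-2-1 share the isodecoder number, and how reads were assigned between them is not known. The second site was the lowest in all 3 genes and overlapped between tRNA-Gly-GCC-2-8 and tRNA-Gly-GCC-2-1. The shallow tRNA-Gly-GCC-2-7, on 12 to 32 reads, did not have a low second site. Its isolated site was the lowest at 28.9% ± 4.63 and the next stood at 79.2% ± 13.6 in WT. In tRNA-Val-AAC-2-1 the isolated site, at position 23469608, is the valine candidate for DNMT2 by spacing. It stood at 38.5%, 42.3% and 55.6% in WT against 63.2%, 52.9% and 75% in the knockout on 8 to 26 reads. The genotypes overlapped there, at a difference of 18.3 points (quasi-binomial model, adjusted p = 0.877).

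All 4 sites of tRNA-Gly-GCC-4-1 had a lower mean in the knockout, and knockout replicate 2 was the lowest library at each. The isolated site (chromosome 8, position 111789229) stood at 48.9%, 51.5% and 49.9% in WT against 46.3%, 38.5% and 48.7% in the knockout. The next stood at 26.2%, 25.6% and 26.9% in WT against 25.04%, 21.8% and 22.8% in the knockout. Knockout libraries lay below WT at both, and overlapped WT at the other sites. For the isolated site the quasi-binomial model gave an adjusted p of 0.867, and the difference of -5.60 points was -2.60 without knockout replicate 2. Sites of 1 gene share their reads and are not independent replicates of the difference.

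**Figure D4:**
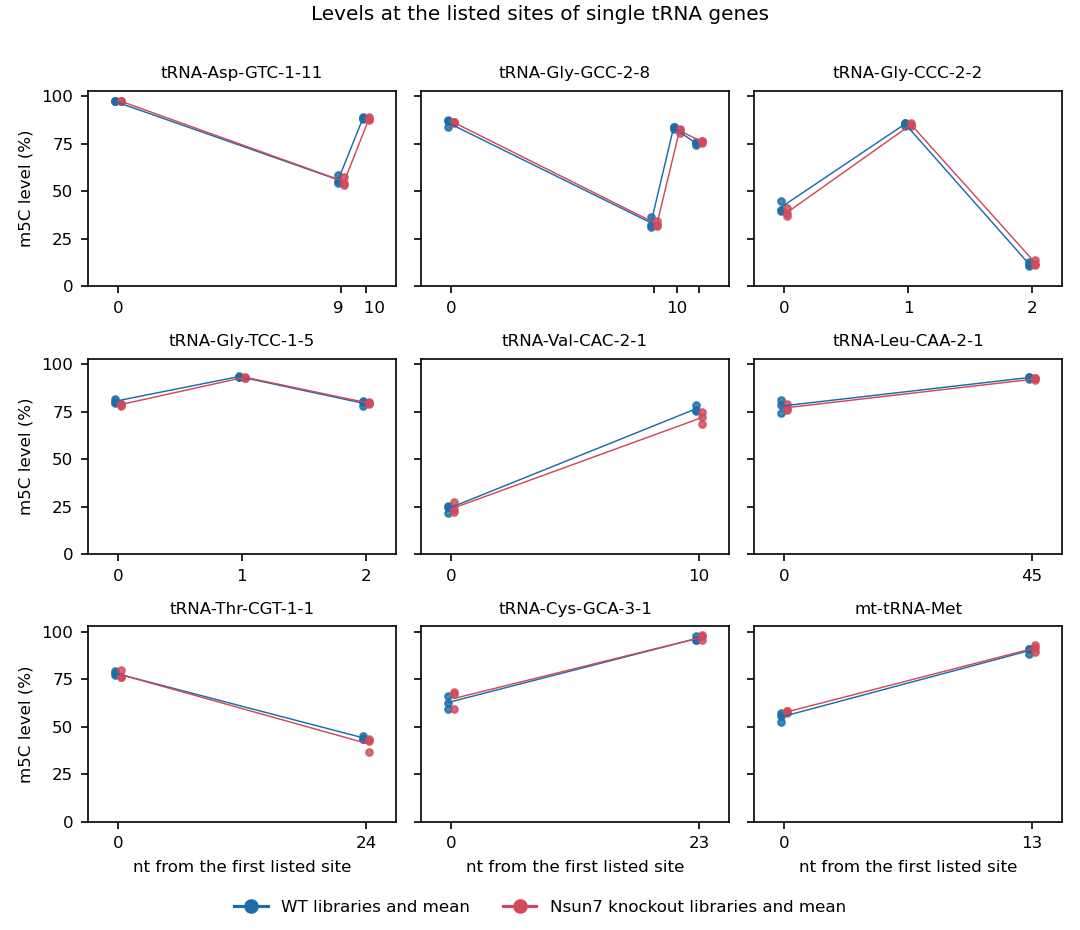
The m5C level (%) at each listed site of 9 tRNAs against the distance in nucleotides from the first listed site, with points for the 3 WT and 3 knockout libraries and lines through the means. The rise and fall from site to site is repeated in both genotypes, as in tRNA-Gly-CCC-2-2 with 41.7%, 85.6% and 11.7% in WT; levels differ far more between sites than between genotypes.

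Wider spacings gave the candidate sites of the wobble base and the acceptor end. In tRNA-Leu-CAA-2-1 the first site, 45 nucleotides before the other, stood at 78.8%, 80.9% and 74.1% in WT against 76.0%, 78.9% and 76.5% in the knockout on 414 to 540 reads. The gap to the second site, on 81432 to 109121 reads, was 15.1 ± 2.87 points in WT against 15.1 ± 2.16 in the knockout. In tRNA-Leu-CAA-4-1 the first site was lower, at 61.9% ± 7.02 and 60.1% ± 11.5 on 46 to 78 reads, and the second at 95.9% ± 0.282 and 95.5% ± 0.0432 on 27024 to 40487 reads. At that second site the knockout libraries lay below WT, at 96.18%, 96.02% and 95.63% in WT against 95.55%, 95.52% and 95.47% (quasi-binomial model, adjusted p = 0.799). Coverage of the 2 sites of a Leu-CAA gene thus differed greatly, and most reads at the second site did not cover the first. The gap may compare different molecules, which was not tested. Distances are by genome coordinate, and whether they hold in the mature tRNA was not checked. The Cys and Thr genes, whose last site is the candidate for NSUN6, did not share a direction. The second site was higher in tRNA-Cys-GCA-3-1, by 33.6 ± 4.60 points in WT against 32.3 ± 5.80 in the knockout, and in tRNA-Thr-TGT-3-1, by 12.4 ± 1.66 and 13.4 ± 1.10. It was lower in tRNA-Thr-CGT-1-1, by gaps of -34.1 ± 0.537 points in WT against -36.5 ± 3.16 in the knockout, and in tRNA-Thr-CGT-2-1, by -2.59 ± 0.343 and -2.65 ± 0.151 (SD, n = 3). tRNA-Thr-AGT-1-2 had its last site higher than the one before, by 3.29 ± 1.90 points in WT against 6.51 ± 2.38 in the knockout. These 5 gaps kept their sign in 6 of 6 libraries. In the shallow tRNA-Thr-AGT-4-1 the gap was -0.396 ± 0.811 points in WT against -9.84 ± 13.3 in the knockout and was negative in 4 of 6 libraries.

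The gaps were compared between genotypes by class of spacing, taken within each library as the later site minus the earlier. For adjacent sites the mean gap over 36 pairs was -0.321, -0.222 and 1.58 points in WT against 1.20, 1.46 and 3.05 in the knockout, which overlap. The difference of 1.56 points had p = 0.3 in the exact permutation test. For the 10 pairs 9 or 10 nucleotides apart the gap was -6.23, -1.70 and -9.06 in WT against -11.6, -6.76 and -16.5 in the knockout. The difference of -5.96 points had p = 0.2 in the exact permutation test and spanned -14.8 to 2.30 over the pairs of libraries. It was -0.986 points for pairs with at least 30 reads and -1.82 for the median. The 7 pairs at 23 or 24 nucleotides differed by -0.112 points (exact permutation p = 0.9), which turned to 0.0706 for pairs with at least 30 reads. The 3 pairs at 41 to 46 differed by -3.40 points (exact permutation p = 0.6), which turned to 0.721 with at least 30 reads and to 0.0426 for the median.

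Genes of 1 isodecoder were compared with each other. They share the mature sequence, and the sources used here do not give how reads were assigned among identical copies, so the level of a single copy is uncertain. There were 13 isodecoders with 2 to 4 listed copies, 35 genes in all. The widest spread was in tRNA-iMet-CAT-1. Copy 4 stood at 91.9% to 93.1% in WT, and copy 5 at 14.4%, 21.9% and 20.2% in WT against 10.1%, 17.9% and 14.8% in the knockout. The mean levels of these copies were 92.4% and 18.9% in WT. Copy 4 had 9365 to 14619 reads and copy 5 at most 97. tRNA-Ile-AAT-1 was similar, with copy 6 at 96.1% on 1237 to 1547 reads, copy 1 at 46.7% on 31 to 62 reads and copy 3 at 37.5% on 8 to 38 reads in WT. In tRNA-Leu-CAG-2 the deeper copy was the lower one, copy 1 at 14.9% on up to 7922 reads against copy 2 at 47.8% on up to 633 reads.

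Over the 13 isodecoders the range between copies, by the mean over the sites of a copy in WT, ran from 4.00 points in tRNA-Glu-TTC-1 to 73.5 points in tRNA-iMet-CAT-1, with a median of 28.3 points in WT against 26.6 in the knockout. The most covered copy was the highest in 9 of the 13. The copy highest in the WT mean was above the lowest in 6 of 6 libraries for all 13, which the choice of copies by WT mean fixes in part. The largest change of a range between genotypes was 11.3 points, in tRNA-Ile-AAT-1, from 58.5 in WT to 47.3 in the knockout, where the lowest copy had 8 to 38 reads. Copies with different numbers of listed sites were compared by their means, and their sites were not matched.

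**Figure D5:**
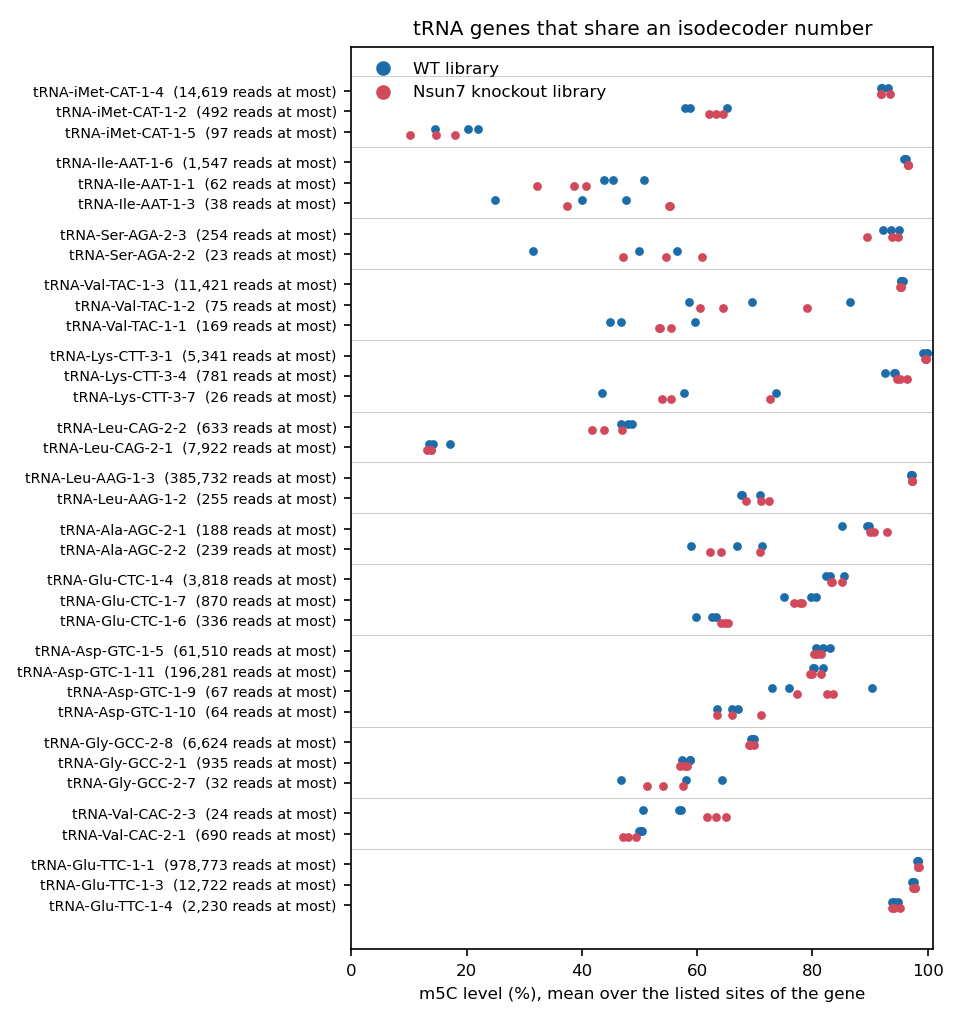
The m5C level (%), averaged over the listed sites of a gene, for the 35 tRNA genes that share an isodecoder number with another listed gene, in each of the 6 libraries; the number in brackets is the most reads at a site in any library. Copies of 1 isodecoder lie up to 73.5 points apart in WT, as in tRNA-iMet-CAT-1, while WT and knockout points of a copy lie close together where the copy is deep.

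Other sites at which the libraries of the genotypes lay apart, with at least 30 reads each, had small differences or were shallow. tRNA-Ala-AGC-2-1 (chromosome 13, position 21406803, 139 to 188 reads) stood at 85.2%, 89.9% and 89.4% in WT against 93.0%, 89.9% and 90.6% in the knockout, apart from WT by a narrow margin. tRNA-Lys-CTT-3-4 (position 23620557, 609 to 781 reads) stood at 92.6%, 94.4% and 94.3% in WT against 94.8%, 95.2% and 96.4% in the knockout. tRNA-Thr-AGT-1-2 at its last site (chromosome 11, position 68928751, 261 to 498 reads) had 92.2%, 92.5% and 92.1% in WT against 96.2%, 92.7% and 93.1% in the knockout, where replicate 1 was the high library. In all 3 the knockout libraries lay wholly above WT. Lrig1, a gene for a leucine-rich repeat membrane protein, also lay higher, at 37.0%, 41.0% and 34.8% against 47.0%, 42.6% and 43.6% on 39 to 83 reads. Among the lower ones, tRNA-Ile-AAT-1-1 had 45.5%, 50.8% and 43.9% in WT against 32.3%, 40.7% and 38.7% in the knockout on 31 to 62 reads, and the last site of tRNA-Thr-CGT-1-1 had 43.8%, 45.3% and 43.7% in WT against 43.5%, 42.5% and 37.0% in the knockout on 277 to 375 reads. Adjusted p-values of these 6 sites ran from 0.799 to 0.877 in the quasi-binomial model. Single libraries carried much of some differences: that of tRNA-Thr-AGT-1-2 was 1.72 points with all libraries and 0.638 without knockout replicate 1, that of tRNA-Ala-AGC-2-1 3.02 and 1.53 without WT replicate 1, that of tRNA-Lys-CTT-3-4 1.73 and 1.15 without WT replicate 1, and that of tRNA-Thr-CGT-1-1 -3.27 and -1.29 without knockout replicate 3.

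The coverage of each RNA's most covered site was compared as a second readout. Coverage of small RNA reads mixes the amount of the RNA with how well it was captured, and in whole testis fewer cells of a type and less RNA per cell cannot be told apart. edgeR's quasi-likelihood test called 0% of 128 RNAs, with a lowest adjusted p of 0.744, and 5 RNAs (3.91%) had an unadjusted p under 0.05. DESeq2 also called 0, with 2 at an unadjusted p under 0.05. Gm37350 had the lowest unadjusted p, 0.0101, with 8530, 10539 and 9426 reads in WT against 11862, 13602 and 13908 in the knockout, a log2 fold change of 0.53 ± 0.17 (SE). Its knockout libraries were all deeper, while its level of m5C overlapped between genotypes.

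The highest fold change was that of Rprl2, 0.99 ± 0.40 (SE) on the log2 scale, with 228, 490 and 477 reads in WT against 534, 1260 and 508 in the knockout. Knockout replicate 2 was the high library and WT replicate 1 the low one. The lowest was that of tRNA-Asp-GTC-1-9, -1.01 ± 0.56 (SE), with 67, 24 and 13 reads in WT against 30, 10 and 9 in the knockout, which overlap. The other RNAs at the ends had fewer than 50 reads in every library: Ebf2 at 0.84 and Ocel1 at 0.82 on the high side, Mir99ahg at -0.66 and Piwil1 at -0.64 on the low side (log2 fold changes). These folds are relative to the other listed RNAs only.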

How the data were processed

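Small RNA m5C was measured in 3 WT and 3 Nsun7 knockout libraries. The tools named in the submitters' processing notes are Bowtie2, HISAT2, SAMtools, Trimmomatic and cutadapt, with the build GRCm39. The sources used here give neither their roles and versions nor the rule for listing sites. The authors deposited, per the file headers, coverage and C read counts without normalization. They also deposited the m5C level as a fraction, which equals C count over coverage to within 0.005. Levels were recomputed here from the deposited counts, in percent. Per-sample columns left unmapped numbered 0.

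Sites were tested by a quasi-binomial logistic model with the site's own dispersion (coverage of at least 10, at least 2 libraries per genotype, two-sided, Benjamini-Hochberg adjustment, threshold 0.05) in R 4.3.3. Alternatives were moderated dispersions and limma 3.58.1 on levels, Fisher's exact test on pooled reads, coverage minimums of 1 and 30, the replicate number as a block, and each library left out. Means used exact permutation tests over the 10 distinct splits. Coverage counts were tested with edgeR 4.0.16 (TMM) and DESeq2 1.42.0. Models were first tested on simulated data with large changes, which leaves their power for small differences unmeasured. A minimum recovery was required there only of the model with moderated dispersions and of edgeR. No molecular identifiers are mentioned, so reads may not be independent molecules and depth covers counting error only.

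The sites named are those called, the 5 highest and 5 lowest differences among sites without overlap and at least 30 reads, the most covered site per isoacceptor, all mitochondrial tRNA and tRX sites, the 5 deepest other RNAs, the 2 deepest genes per spacing class, candidate sites of known enzymes by spacing, and for coverage the 3 highest and lowest folds; the others were chosen after their values were seen. Members and lists were chosen with earlier results of these data known. tRNA sequences were not used here.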

Additional observations from a re-analysis of the deposited data

How the results depend on the processing

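No site was called by the quasi-binomial model in any alternative of coverage minimum, dispersion, replicate block or library left out (4 to 9 sites at an unadjusted p under 0.05 with 1 library left out), nor by limma, whereas Fisher's exact test on pooled reads called 24. The 0 calls on coverage held in each alternative run. Differences between genotypes in mean level turned as follows. For cytosolic tRNA, 0.655 points became -0.369 for the median and -0.271 with at least 30 reads. For mitochondrial tRNA, 1.65 became -0.263 for pooled reads. For tRX, 1.15 became -0.391 (median) and -0.513 (pooled). For other RNAs, 0.232 became -2.80 (median) and -2.96 (pooled, exact permutation p = 0.1). Over all sites, 0.626 became -0.0987 (median), -0.0373 (pooled) and -0.119 (at least 30 reads). With 1 library left out these ranged from 0.281 to 0.957, 0.659 to 3.15, 0.548 to 1.83, -0.428 to 1.05 and 0.229 to 1.03. Gaps at 23 or 24 nucleotides changed from -0.112 to 0.0706 with at least 30 reads, and from -1.01 to 0.882 with 1 library left out, turning without WT replicate 2 (0.744) and knockout replicate 3 (0.882). Gaps at 41 to 46 changed from -3.40 to 0.0426 (median) and 0.721 (at least 30 reads), and from -6.93 to -0.0223 with 1 library left out. Isoacceptors without overlap rose from 4 to between 6 and 9, with 7 without WT replicate 1, 9 without WT replicate 2 and 8 without knockout replicate 1, since fewer libraries must lie apart. The cause of the other changes was not tested.

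Replicate numbers were not taken as pairing the libraries: deviations of same-numbered libraries correlated at 0.106, 0.120 and -0.107 over 129 sites with at least 30 reads, and libraries did not each correlate best with their own number. With the replicate number as a block, 0 of 179 sites were called (8 at an unadjusted p under 0.05) and 0 of 128 RNAs by coverage (9), and the exact sign-flip p of the mean levels was 0.25 or more, the smallest that 3 pairs allow.

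Under 30 reads the median SD between libraries was 5.58 points in WT and 6.42 in the knockout. The median difference between genotypes in either direction was smaller, at 3.72 points. The power to detect small changes at this depth was not measured.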
